A study of Mus musculus with 10 samples.

Results

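The peroxisome proliferator-activated receptor gamma coactivator 1 (PGC1) axis is represented here by 10 genes, listed by name: the coactivators Ppargc1a and Ppargc1b, the nuclear receptors Ppara, Ppard, Esrra and Esrrg, the nuclear factors Nrf1 and Gabpa, the mitochondrial transcription factor Tfam, and the muscle regulator Perm1. All 10 were found among the 26147 genes with a curated RefSeq transcript on the mouse build GRCm38 (mm10). For each gene, peaks were taken from 8 chromatin immunoprecipitation sequencing (ChIP-seq) lists when the peak midpoint lay in the gene body or within 30 kb of a transcription start site (TSS). The lists came from skeletal muscle of C57BL/6J mice, given an age of 10 weeks in the labels, that were either fed or starved for 24 h. In each condition, 1 library was made with each of 4 antibodies: against the glucocorticoid receptor (GR), the lysine-specific demethylase LSD1, H3K9me1 (histone H3 carrying 1 methyl group on lysine 9) and H3K9me2 (the dimethylated form). The labels do not say how many animals a library came from, and the tissue label could not be checked against marker genes because peak lists hold no RNA values. With a single library in each group there is no replicate spread to compare with, so no p-value is given and fed against starved means these libraries only. Their read depth is unknown.

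PGC1 coactivators do not bind DNA themselves. They are recruited by the PPAR and estrogen-related receptors and by nuclear respiratory factors to genes of fatty acid oxidation, the respiratory chain and mitochondrial DNA maintenance, and in muscle the axis is known for its response to exercise, cold and fasting. GR is the receptor of glucocorticoids, the adrenal hormones that rise in fasting, and LSD1 removes methyl groups from histone H3.

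DNA motifs of the axis itself lay inside several of the peaks at these genes, and the stretches that hold them are shown first because the peaks described below sit on them. The sequences are from RefSeq (GRCm38), 5′ to 3′ on the strand of the gene, and capitals mark the motif. In the Tfam promoter, the GR peak of starved muscle and the LSD1 peaks of both conditions all covered an ETS core, the element bound by GABPA, that started 47 bp upstream of the TSS (chr10:71238045-71238234, minus strand). In the promoter of Gabpa, the GR starved peak covered an ETS core in the opposite orientation 93 bp upstream of the curated TSS, which is also in an intron of transcripts of the neighbour Atp5j (chr16:84835024-84835062, plus strand). The GR fed peak at the Esrra promoter reached an estrogen-related receptor element (ERRE) 537 bp upstream of the TSS (chr19:6922154-6922353, minus strand). At Ppara the GR starved promoter peak held a nuclear respiratory factor 1 (NRF1) element (chr15:85735735-85735764, plus strand). This element was 31 bp upstream of the second of 2 curated TSSs and downstream of the first, in non-coding exon sequence.
Tfam promoter, ETS: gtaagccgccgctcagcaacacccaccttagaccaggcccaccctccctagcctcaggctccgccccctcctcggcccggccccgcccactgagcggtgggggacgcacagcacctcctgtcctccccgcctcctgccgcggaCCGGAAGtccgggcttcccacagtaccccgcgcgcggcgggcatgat
Gabpa promoter, ETS: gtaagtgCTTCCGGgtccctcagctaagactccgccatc
Esrra promoter, ERRE: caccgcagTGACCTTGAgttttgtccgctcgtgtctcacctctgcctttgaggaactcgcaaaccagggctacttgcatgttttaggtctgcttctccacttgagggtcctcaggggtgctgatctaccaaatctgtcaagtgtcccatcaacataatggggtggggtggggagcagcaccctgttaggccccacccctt
Ppara promoter, NRF1: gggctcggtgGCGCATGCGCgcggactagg
The motifs searched on both strands were CCGGAAG for ETS, TNAAGGTCA for ERRE, and GCGCA directly followed by TGCGC for NRF1. A match describes the letters and does not show that the factor binds there. Among 32851 RefSeq promoters of 300 bases, 8.86% held the ETS core, 1.28% the ERRE and 0.971% the NRF1 element. The ERRE printed for Esrra lies upstream of its 300-base promoter, so the share of 1.28% does not apply to it. Peaks of the whole lists held an ETS core in 5.52% of GR starved and 1.20% of LSD1 starved cases, and 4 of 70 GR starved and 3 of 78 LSD1 starved peaks at the 10 genes did so. Some of these GR starved peaks lay in the Esrra window, nearer to Trmt112 and Bad. In fed muscle an ETS core was in 1 of 31 GR peaks (6.03% of the whole list) and 2 of 28 LSD1 peaks (6.65%). An ERRE was in 1 of 31 GR fed (2.22%) and 2 of 70 GR starved peaks (1.97%). For LSD1, none of 28 fed (1.26%) and 2 of 78 starved peaks (0.666%) held an ERRE. An NRF1 element was in 1 of 70 GR starved peaks (0.510%). The matches at the 10 genes were thus few.

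The glucocorticoid response element (GRE), searched as AGAACA and TGTTCT with 3 bases between them, was in none of the 31 GR fed and 70 GR starved peaks of the PGC1 axis when 1 mismatch was allowed. In the whole lists 2.17% of GR fed and 0.712% of GR starved peaks held one. With 2 mismatches, 3 GR fed peaks at Ppargc1a, Ppargc1b and Ppard and 1 GR starved peak at Ppargc1a matched, against 9.75% and 4.33% of all peaks in those lists. The closest GRE-like stretches of Ppargc1a and Ppard are printed below, chosen after their values were seen, from chr5:51537145-51537302 (minus strand) and chr17:28272397-28272534 (plus strand), both intronic. The peak with the Ppard stretch lay 39.7 kb from the Ppard TSS but 0.76 kb from a TSS of 1810013A23Rik.
Ppargc1a intron, GRE-like: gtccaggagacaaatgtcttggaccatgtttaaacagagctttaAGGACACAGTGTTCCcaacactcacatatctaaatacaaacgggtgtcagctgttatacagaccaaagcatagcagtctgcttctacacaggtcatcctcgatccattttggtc
Ppard intron, GRE-like: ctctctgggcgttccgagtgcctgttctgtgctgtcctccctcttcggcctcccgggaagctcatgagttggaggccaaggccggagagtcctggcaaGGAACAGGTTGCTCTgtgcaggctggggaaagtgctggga

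The first comparison asked how many of the 10 genes had a peak in each list. GR had a peak at 7 of 10 genes in fed muscle and at 10 of 10 in starved muscle, against 43.2% and 66.4% of all genes. Esrrg, Nrf1 and Perm1 were the genes without a fed GR peak. LSD1 had a peak at all 10 genes in both conditions, against 51.1% of all genes in fed and 83.7% in starved muscle. H3K9me1 was found at 4 of 10 genes in fed and 9 of 10 in starved muscle, with 38.0% and 65.6% of all genes, and Tfam was the gene without an H3K9me1 peak in either. H3K9me2 was found at all 10 genes in fed muscle, where 95.5% of all genes had it, and at Esrrg alone in starved muscle, where 10.2% did. The shares of the 10 genes were thus close to those of all genes for H3K9me2 and for H3K9me1 fed, and above them for the other 5 lists. A longer window can hold more peaks. Among the 17763 genes with windows of at most 61 kb, the size of the windows of Esrra, Tfam, Gabpa and Perm1, 40.4% had a GR fed and 48.7% an LSD1 fed peak, and 3 and 4 of those 4 genes did. For the 1908 genes with windows about as long as those of Ppargc1a, Ppargc1b, Ppara, Ppard and Nrf1, the same shares were 50.4% and 58.6%, and 4 and 5 of the 5 genes had such a peak. In starved muscle 73.8% of these 1908 genes had a GR, 91.8% an LSD1 and 81.6% an H3K9me1 peak, and all 5 genes had each. Among the shortest windows the shares were 62.8%, 80.6% and 60.3%, with 4, 4 and 3 of the 4 genes. Esrrg had each, against 83.8%, 98.3% and 97.9% of the 241 genes with windows of 500 kb or more. Beside the 1908 genes the excess of the 5 genes was smaller than that of the 10 genes beside all genes, except for GR fed.

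**Figure D1:**
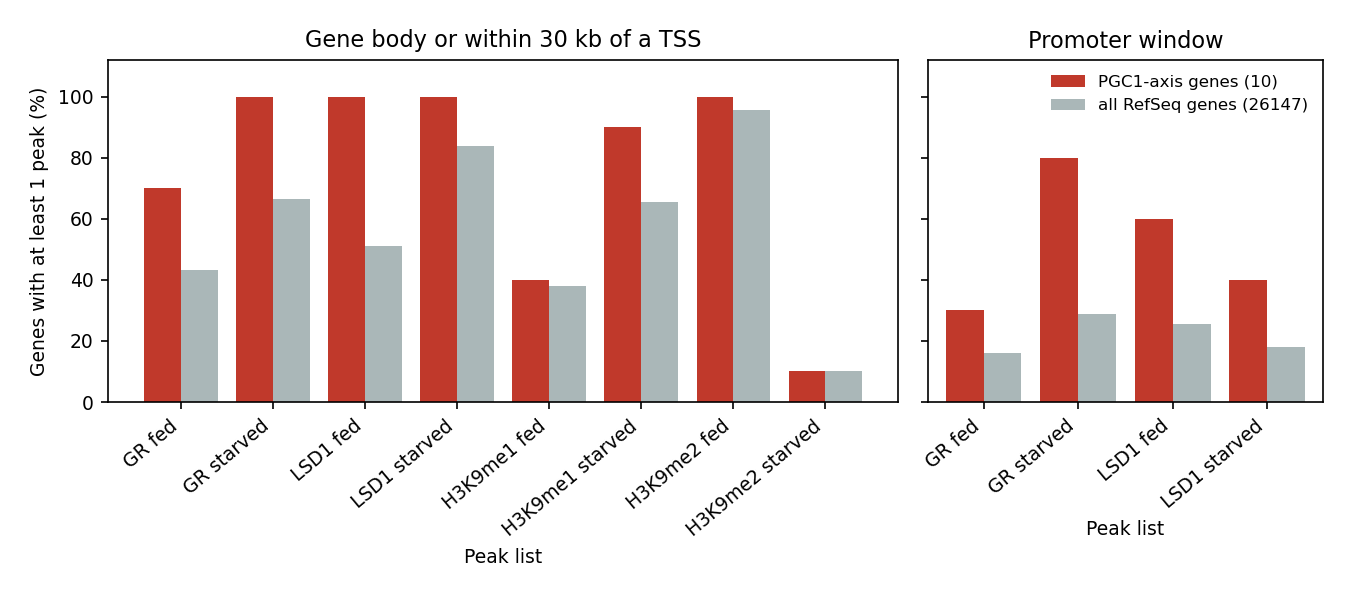
Share of genes (vertical axis, percent) with at least 1 peak in each list, for the 10 PGC1-axis genes (red bars) and for all 26147 RefSeq genes (grey bars). The left panel uses the gene body or 30 kb around a TSS and the right panel the promoter window, where GR starved peaks were at 8 of 10 genes against 28.9% of all genes.

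The number of peaks differed widely between the 10 genes. Ppargc1a encodes PGC1-alpha, the inducible coactivator of the family, and had 6 peaks in GR fed and 4 in GR starved, and 2 in LSD1 fed and 3 in LSD1 starved. Its homologue Ppargc1b had 8, 16, 9 and 9 peaks in the same order. Ppard, the PPAR that is abundant in muscle, had 7, 15, 4 and 13. Ppargc1b and Ppard had the highest GR counts of the 10 genes in both conditions.
Ppara, the receptor known for the fasting response of the liver, had 3 and 6 GR peaks in fed and starved muscle, and 1 and 3 LSD1 peaks. Esrra had 3, 9, 2 and 6, in a window shared with the neighbouring genes Prdx5, Trmt112 and Bad. Perm1, a muscle gene induced by PGC1 and the estrogen-related receptors, had 0, 6, 2 and 4. At each of these genes the starved lists held more peaks than the fed lists.
Nrf1 had 0 and 2 GR peaks in fed and starved muscle, and 1 and 5 LSD1 peaks. Tfam, which packages and transcribes mitochondrial DNA, had 1, 3, 4 and 3. Gabpa, the DNA-binding subunit of nuclear respiratory factor 2, had 3, 1, 2 and 2. LSD1 peaks were not more numerous in starved than in fed muscle at Tfam, Gabpa and Ppargc1b.
Esrrg, with the longest window (636 kb), had 0 and 8 GR peaks, 1 and 30 LSD1 peaks, and 55 of the 137 H3K9me2 fed peaks. Per 100 kb of window, the 10 genes held 2.08 GR fed peaks, against 1.06 over the windows of all genes, and 3.61 when Esrrg was left out. LSD1 fed peaks numbered 1.87 per 100 kb, against 1.38 over all windows. A peak in a window can be nearer to another gene: the gene's own TSS was the nearest one for 14 of 31 fed and 30 of 70 starved GR peaks, and for 15 of 28 fed and 42 of 78 starved LSD1 peaks.

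**Figure D2:**
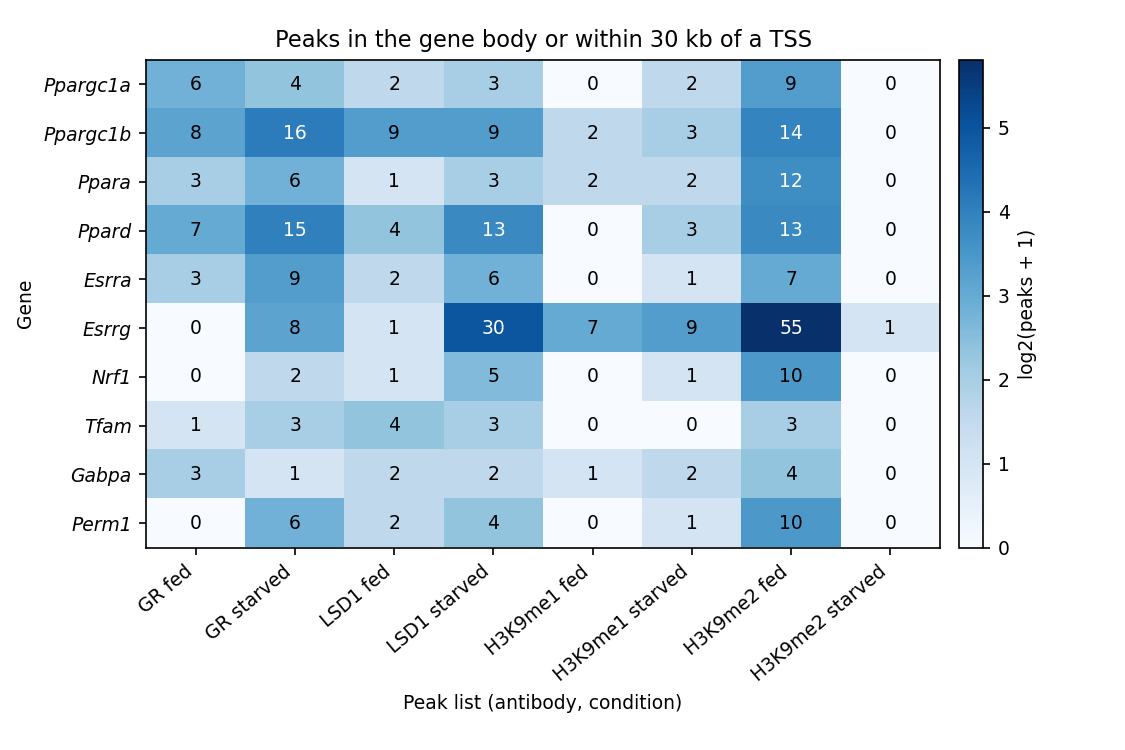
Number of peaks (printed in each cell, shade on a log2 scale of peaks + 1) for each of the 10 genes (rows) in each of the 8 lists (columns). Esrrg holds the highest LSD1 starved count, 30, and the H3K9me2 starved column is at 0 except for 1 peak at Esrrg.

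The second comparison asked how the peaks changed between fed and starved muscle. GR peaks over the 10 genes went from 31 in fed to 70 in starved muscle, a ratio of 2.26, while the whole lists had a ratio of 2.67. More GR peaks were present in starved muscle at 8 genes, against 56.4% of all genes. Ppargc1a and Gabpa had fewer, against 4.26% of all genes. LSD1 peaks went from 28 to 78, a ratio of 2.79 with 3.98 for the whole lists. LSD1 peaks were more numerous in starved muscle at 7 genes (65.2% of all genes) and fewer at 1, Tfam (11.5% of all genes). The direction of both ratios depended on how many peaks a list holds: with the fed and starved lists made equally long by fold enrichment, GR gave 31 fed and 21 starved peaks and LSD1 28 and 15. Equal length sets the ratio of the whole lists to 1.00. Peaks at a q-value up to 0.01 numbered 24 in each condition for GR, and 12 in fed and 5 in starved muscle for LSD1, ratios of 1.00 and 0.417 where the whole lists had 1.31 and 0.882. The LSD1 starved list does not have the number of peaks that the study's text names, and the reason is not known from the sources used here. H3K9me1 peaks went from 12 to 24 (12 and 10 with equally long lists), with more at 8 genes (51.3% of all genes) and fewer at none (13.5%). H3K9me2 peaks went from 137 to 1, with fewer at all 10 genes (94.9% of all genes) and more at none (0.386%). The labels give the libraries of each mark one code in fed and another in starved muscle, so condition and code cannot be told apart.

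Ppargc1a had fewer GR peaks in the starved list, and its intronic sites of highest fed fold had lower fold enrichment over input in starved muscle. A lower starved fold was the usual case. Over the genome, 21.3% of the 9279 fed GR peaks that overlapped a starved one had a higher fold in starved muscle. The site with the highest fold lay in an intron, 19.1 kb downstream of the nearer TSS (chr5:51534512-51535199), with a fold of 5.37 in GR fed (q = 4.63e-16), 3.29 in GR starved (q = 9.34e-06) and 4.76 in LSD1 fed (q = 0.000618). No LSD1 starved peak overlapped it. The neighbouring intronic site, 16.6 kb downstream and shown above for its GRE-like stretch, went from 4.69 in GR fed to 3.31 in GR starved. Of the remaining fed GR peaks, 1 in the same intron and 1 at 4.13 kb upstream had no starved counterpart. Upstream of the gene the order turned. A site 28.1 kb before the upstream TSS had a GR fold of 3.26 in fed and 4.32 in starved muscle (chr5:51595689-51596034, q = 5.42e-08), and this was the highest starved GR fold at the 10 genes. The 3 LSD1 starved peaks of Ppargc1a had folds of 3.24 to 3.37 and q-values of 0.0712 to 0.0748.

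Ppara held the highest GR fold of the 10 genes in fed muscle. This peak lay 41.2 kb downstream of the TSS in an intron of the curated transcripts (chr15:85776799-85777075), with a fold of 5.86 in fed (q = 4.77e-15) and 4.03 in starved muscle (q = 1.19e-07). The nearest TSS was that of Cdpf1, 34.8 kb away. No LSD1 peak overlapped the Ppara peak in either condition. GR and LSD1 met at Ppara in fed muscle at a single intronic site 21.0 kb downstream of the TSS, with folds of 3.81 and 4.03. In starved muscle they met 25.6 kb upstream, near Mirlet7b, with 2.72 for GR and 3.65 for LSD1.

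Ppard and Ppargc1b held the 3 sites with a peak from all 4 GR and LSD1 lists. Here a site is a chain of overlapping peaks, which need not all overlap each other. Such sites were not counted at other genes. Of these, 2 were at Ppard. The first lay 8.61 kb upstream of the TSS (chr17:28223790-28224491), with GR folds of 3.32 in fed and 2.93 in starved muscle, and LSD1 folds of 4.38 and 3.52. Its GR fed and LSD1 starved peaks did not overlap each other. The second was intronic, 14.98 kb downstream (chr17:28247295-28248174), with 3.06, 2.77, 4.13 and 3.38 in the same order. In both, the fed fold was above the starved fold for GR and for LSD1. The third lay 1.84 kb downstream of the Ppargc1b TSS, next to the start of the intronic microRNA gene Mir378a, with 2.78, 2.75, 4.28 and 3.53. The LSD1 starved peaks of the 3 sites were weak, with q-values of 0.0559, 0.0627 and 0.0188. A further 12 sites were in 3 lists, 9 of them in GR fed, GR starved and LSD1 fed without LSD1 starved. At Ppard the highest starved GR fold was 3.60, at an intronic site 3.80 kb downstream of the TSS (chr17:28236073-28237031) where GR fed had 3.41 and LSD1 fed 4.27.

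**Figure D3:**
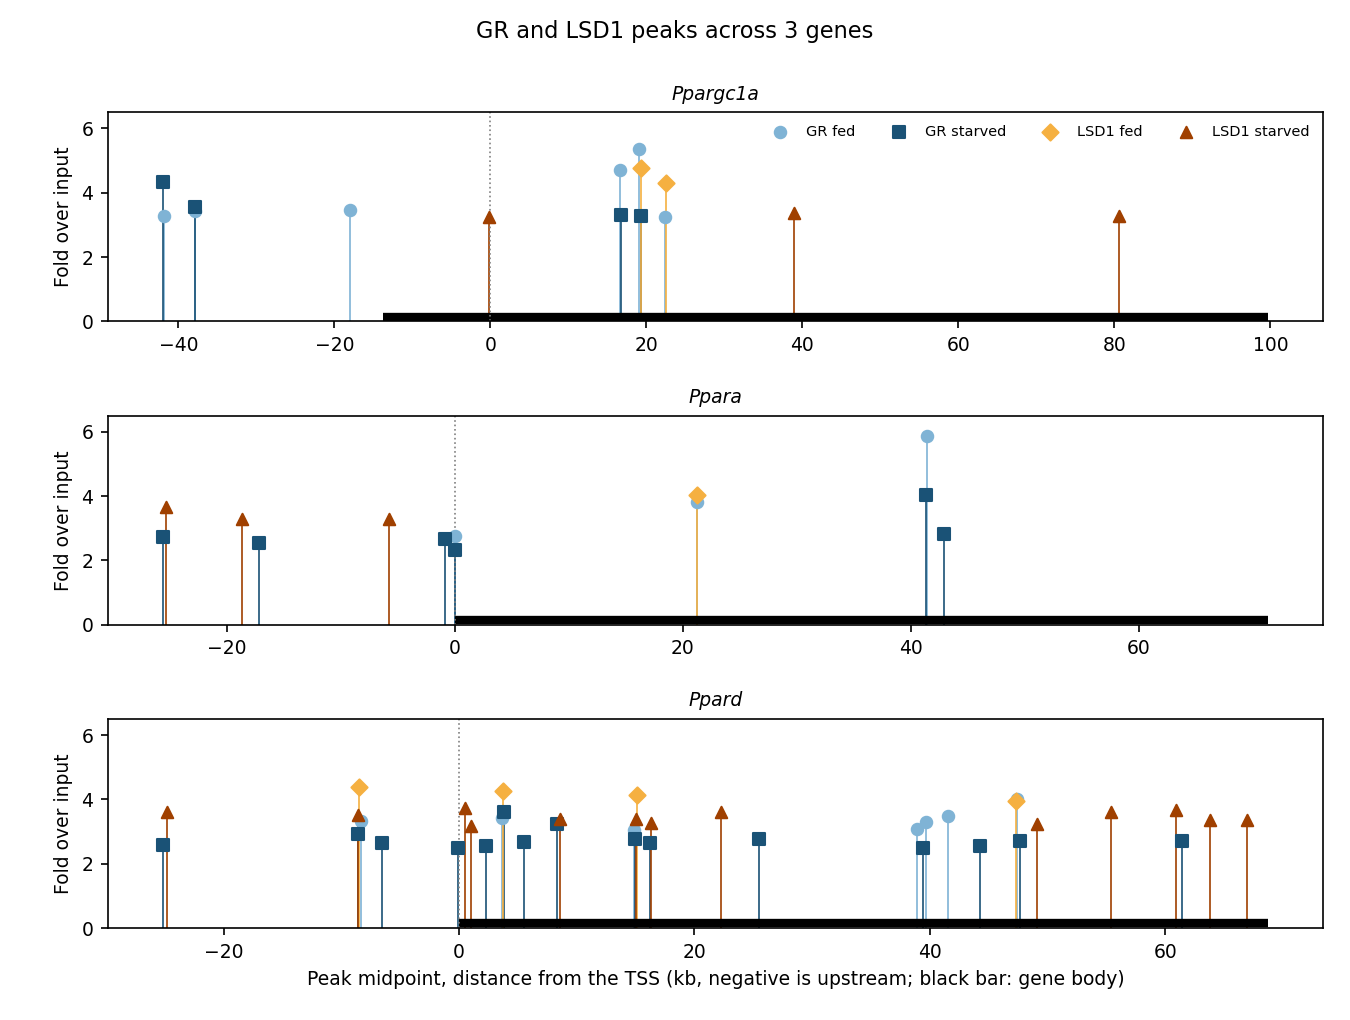
GR and LSD1 peaks at Ppargc1a, Ppara and Ppard, placed by the distance of the midpoint from 1 TSS (horizontal axis, kb; for Ppargc1a the downstream TSS, whereas the text gives the distance to the nearer one) and by fold enrichment over input (vertical axis). The 2 highest GR fed points, 5.86 at Ppara and 5.37 at Ppargc1a, have starved points below them at 4.03 and 3.29.

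Across the 10 genes, 21 of the 31 fed GR peaks overlapped a starved GR peak by at least 1 bp (67.7%, exact binomial 95% interval 48.6 to 83.3, which covers counting error only), and 65.9% of the whole fed list did. In 17 of these 21 the fold was lower in starved muscle, with a median starved to fed ratio of 0.864, and 0.878 over the 9279 such peaks of the genome. The pairs ranged from 0.614 at the Ppargc1a intron to 1.33 at the Ppargc1a upstream site. For LSD1, 6 of 28 fed peaks overlapped a starved one (21.4%, interval 8.30 to 40.95; 22.9% of the whole list). The fold was lower in starved muscle in 5 of the 6, with a median ratio of 0.822 (0.853 over 3802 peaks), and higher at the Tfam promoter, 3.94 against 3.70. These shares and ratios of the 10 genes lay close to those of the whole lists.

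**Figure D4:**
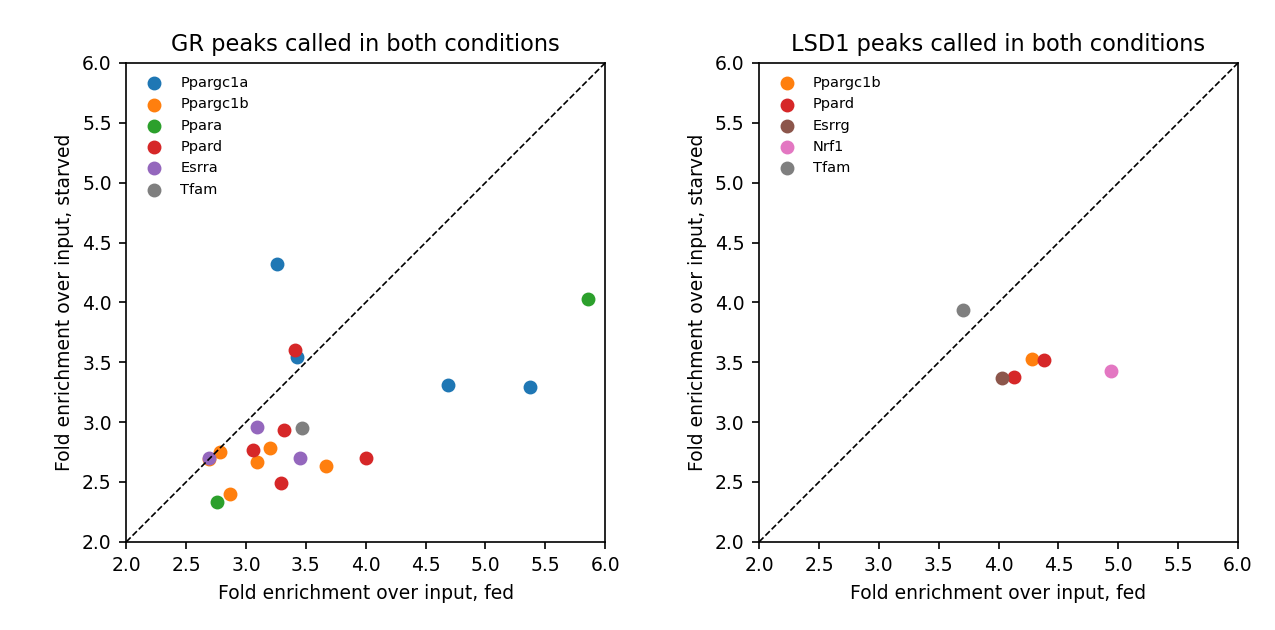
Fold enrichment over input in fed (horizontal axis) and starved (vertical axis) muscle for the 21 GR (left) and 6 LSD1 (right) fed peaks that overlapped a starved peak, coloured by gene, with the line of equal fold dashed. Of the points, 17 GR and 5 LSD1 lie below the line.

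The third comparison concerned promoters, taken as the 1000 bp before a TSS and the 100 bp after it. GR had a promoter peak at 3 of the 10 genes in fed muscle, Ppargc1b, Ppara and Esrra (16.0% of all genes), and at 8 in starved muscle (28.9% of all genes). Ppard, Nrf1, Tfam, Gabpa and Perm1 had one in starved muscle and not in fed muscle, 5 of 10 genes against 15.8% of all genes, and no gene lost one (2.88% of all genes). Ppargc1a and Esrrg had none in either list. LSD1 had a promoter peak at 6 genes in fed muscle, Ppargc1b, Esrra, Nrf1, Tfam, Gabpa and Perm1 (25.5% of all genes), and at 4 in starved muscle, Ppargc1a, Nrf1, Tfam and Gabpa (18.2%). It was gained at Ppargc1a (6.42% of all genes gained one) and lost at Ppargc1b, Esrra and Perm1 (13.7% lost one). The GR gain rested on peaks of moderate fold: with q-values up to 0.01, 3 genes had a starved promoter peak, Esrra, Tfam and Perm1 (13.9% of all genes), and 2 a fed one (9.68%). With equally long lists 2 genes had a starved one (11.8%) and 3 a fed one (16.0%).

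Tfam and Nrf1 were the genes whose promoter carried GR in starved muscle and LSD1 in both conditions at overlapping positions. At Tfam (TSS at chr10:71238044) the GR starved peak spanned chr10:71237681-71238371 with a fold of 3.13 (q = 0.000118). The LSD1 fed peak had a fold of 3.70 (q = 0.0312) and the LSD1 starved peak 3.94 (q = 0.00763). This LSD1 starved peak was the only promoter peak of that list at the 10 genes with a q-value of 0.01 or less, and it begins at the ETS core printed above. At Nrf1 (TSS at chr6:30047988) the folds were 2.73 in GR starved (q = 0.0290), 4.94 in LSD1 fed (q = 0.000666) and 3.43 in LSD1 starved (q = 0.0684), within chr6:30047716-30048059. LSD1 thus had a higher fold in fed muscle at Nrf1 and a higher one in starved muscle at Tfam.
At Esrra, GR was at the promoter in both conditions, with folds of 3.09 in fed (q = 0.00115) and 2.96 in starved muscle (q = 0.000269). LSD1 was there in fed muscle (4.14, q = 0.00513), together with an H3K9me2 fed peak of 3.12 (q = 0.0297) that overlapped all 3 (chr19:6921753-6922353). The starved GR peak ended short of the ERRE that the fed peak covered.
The Ppargc1b promoter held the highest LSD1 fold of the 10 genes, 5.90 (q = 1.35e-05), in a fed peak of 55 bp, the minimum of that list. It lay 0.30 kb upstream of the TSS inside a GR starved peak of fold 2.63 (q = 0.0491), and an H3K9me1 starved peak of 4.48 (q = 0.000569) overlapped it. GR fed had a peak of 3.67 that ran from the TSS into the gene. A second LSD1 fed peak of this promoter, of fold 4.06 (q = 0.0113), overlapped that GR fed peak. No LSD1 starved peak lay in this promoter.
Perm1 had a GR starved peak of 2.78 (q = 0.00660, chr4:156215733-156215892) over an LSD1 fed peak of 3.81 (q = 0.0251). Ppard had GR starved alone, 2.50 (q = 0.0182, chr17:28232500-28232763). At Ppara, GR had 2.76 in fed (q = 0.0190) and 2.33 in starved muscle (q = 0.0358) at the TSS, and 2.67 (q = 0.0363) at a second starved peak 0.91 kb upstream, with no LSD1 peak. At Gabpa, GR starved had 2.48 (q = 0.0315) and LSD1 starved 3.18 (q = 0.0562) in peaks that ended upstream of the Gabpa TSS and lay nearer to starts of Atp5j, and LSD1 fed had 3.67 (q = 0.0279) just downstream of the Gabpa TSS. Peaks between these genes cannot be assigned to either one. Ppargc1a had an LSD1 starved peak of 3.24 (q = 0.0748) at its downstream TSS and an H3K9me2 fed peak of 3.23 (q = 0.0517) at its upstream TSS.

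**Figure D5:**
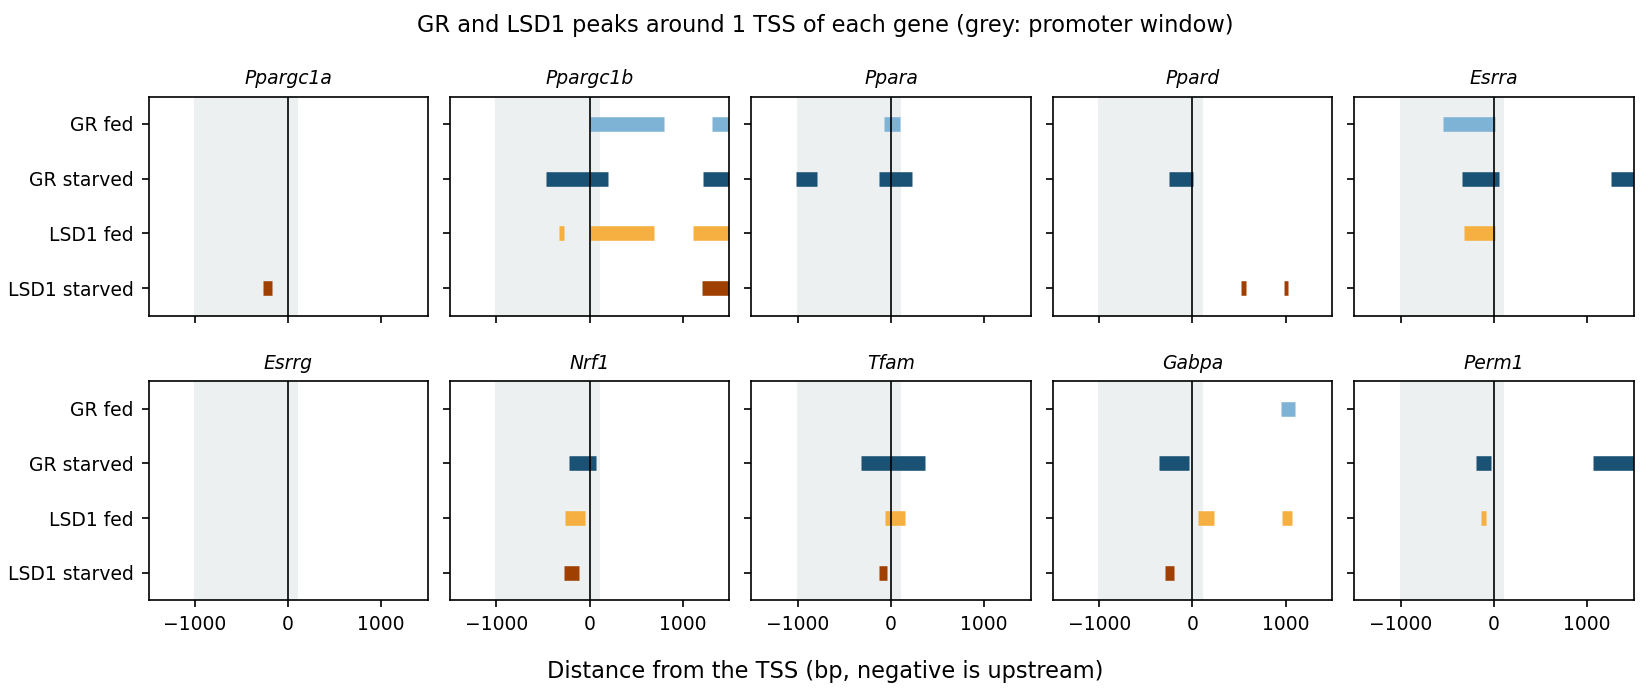
Extent of GR and LSD1 peaks (bars, 1 row per list) around 1 TSS of each of the 10 genes, with the promoter window in grey. GR starved bars touch the window of 8 genes and GR fed bars that of 3.

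The fourth comparison asked where GR and LSD1 met. In fed muscle 15 of 31 GR peaks of the 10 genes were overlapped by an LSD1 peak (48.4%, exact 95% interval 30.2 to 66.9), and 48.2% of the whole GR fed list was. In starved muscle 12 of 70 were (17.1%, interval 9.18 to 28.0; 14.6% of the whole list). Of the 28 fed LSD1 peaks, 18 were overlapped by a starved GR peak and 6 by a starved LSD1 peak, with 55.2% and 22.9% in the whole list. Merging overlapping peaks gave 152 sites, of which 117 were in 1 of the 4 lists. Of these, 65 were in LSD1 starved alone, 29 of them at Esrrg, and 39 in GR starved alone. The share of such sites over the whole lists is not given here. A GR starved peak overlapped 12 of the 78 LSD1 starved peaks (9.03% of the whole list), and an LSD1 fed peak 6 (5.85%). LSD1 starved peaks were short and weak: 29 of 78 were 49 bp long, the minimum of that list (31.0% of the whole list), and 5 of 78 reached a q-value of 0.01 (10.1% of the whole list). The highest fold among them was 4.71, 6.05 kb upstream of Esrra and nearer to Catsperz (q = 0.000916).

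Esrrg differed from the other 9 genes in having no promoter peak of GR or LSD1. Such peaks were uncommon among the 241 genes with windows of 500 kb or more. Of these, 6.22% had one in GR fed, 15.8% in GR starved, 17.0% in LSD1 fed and 12.9% in LSD1 starved. The same genes held 18.9 LSD1 starved peaks on average. The highest GR fold at Esrrg was 3.77 in starved muscle (q = 5.79e-07), in an intron 78.6 kb upstream of the nearest start (chr1:187919037-187919355). The single LSD1 fed peak of Esrrg, 4.03 (q = 0.0135), was also intronic and overlapped an LSD1 starved peak of 3.37. Among the 30 LSD1 starved peaks, 2 had a q-value of 0.01 or less, with folds of 4.40 and 4.12. The H3K9me2 starved peak at Esrrg had a fold of 3.47 (q = 0.0652) and lay 17.8 kb upstream, entirely in repeat-masked sequence. H3K9me1 peaks numbered 7 in fed and 9 in starved muscle here, and promoter peaks of H3K9me2 fed had folds of 3.14 and 3.34.

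H3K9me2 fed peaks overlapped 3 of 28 LSD1 fed and 2 of 31 GR fed peaks at the 10 genes, against 16.7% and 16.3% of the whole lists. The exact intervals, 2.27 to 28.2 and 0.791 to 21.4, hold both of those shares. A promoter peak of H3K9me2 fed was present at 4 genes, Ppargc1a, Ppargc1b, Esrra and Esrrg (24.2% of all genes). The highest H3K9me2 fed fold was 4.68, in a Ppargc1a intron 72.9 kb downstream of the TSS (q = 0.000366). That peak was 50 bp long, the minimum of that list, and lay entirely in repeat-masked sequence. H3K9me1 fed overlapped none of the 28 LSD1 fed peaks, which allows a share of up to 12.3% (upper bound of the exact 95% interval), and 2.17% of the whole LSD1 fed list was overlapped.

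Other genes of the pathway were counted in the same way. Of 18 coactivators, partners and upstream regulators, 14 had a GR fed, 16 a GR starved and all 18 an LSD1 peak in each condition, against 43.2%, 66.4%, 51.1% and 83.7% of all genes for GR fed and starved and LSD1 fed and starved. Promoter peaks numbered 6 genes in GR fed, 9 in GR starved, 10 in LSD1 fed and 8 in LSD1 starved (16.0%, 28.9%, 25.5% and 18.2% of all genes). Nfe2l2, a regulator of antioxidant genes, and Nrip1, a corepressor of nuclear receptors, had promoter peaks in all 4 lists, and Crtc2 and Kat2a in none. A GR promoter peak was gained in starved muscle at 7 of the 18 (15.8% of all genes) and lost at 4 (2.88%). Of 10 genes of mitochondrial DNA transcription and replication, 1 had a GR promoter peak in fed and 5 in starved muscle, and 7 and 4 had one for LSD1, against the same shares of all genes. GR was gained at Tfb2m, Polg2, Twnk, Ssbp1 and Mterf3 and lost at Polg, while Polrmt, the mitochondrial RNA polymerase, and Tefm had no GR or LSD1 promoter peak. H3K9me2 starved had no peak at any gene of the 2 lists, and 10.2% of all genes had one.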

How the data were processed

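The authors mapped single-end reads of each library to mm10 with Bowtie, kept unique reads and called broad peaks with MACS2 against input. The base calls were converted with bcl2fastq 2.20.0.422, per the labels. The 8 deposited lists hold the fold enrichment of every peak, a ratio to input, and its p-value and q-value, both as −log10. A deposited score was not used here. The authors' methods state a stricter false discovery rate than the lists show, whose q-values reach 0.0998. The LSD1 starved list (66332 peaks) was used as deposited and may be another version than the one the study describes. Lists held 6624 to 171402 peaks, and read depth was not analysed here, so precision is limited by unknown depth. Both GR libraries shared 1 library code in the labels and both LSD1 libraries another.

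Peaks on chromosomes 1 to 19, X and Y were placed against 45723 curated RefSeq transcripts (GRCm38) with Python 3.11.15. Gene body or 30 kb windows used peak midpoints, promoters any base, and overlaps at least 1 bp, with exact Clopper-Pearson intervals. Counting, overlap and motif functions were tested on simulated data. Promoter sequences were found for 9 of the 10 genes. The named peaks are promoter peaks, the highest-fold peak of each GR and LSD1 list, and sites in 3 or more of the 4 lists, and H3K9me peaks at promoters, over such peaks or highest of their list. A few others were named after their values were seen. The genes, pathway lists, motifs and alternatives were chosen with earlier results of these data known. The sequence of 1 peak is not reported here.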

Additional observations from a re-analysis of the deposited data

Results flagged for a closer look

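At the 10 genes the peaks of both marks moved in opposite directions between fed and starved muscle, with a starved to fed ratio of 2.00 for H3K9me1 and 0.00730 for H3K9me2. The difference was not tested, because each group had 1 library. The ratios of the whole lists were 2.69 and 0.0382, and the library codes of each mark changed with the condition, so that code and condition cannot be told apart. With equally long lists the ratio of the whole lists is 1.00 for each mark by construction. The 10 genes then held 12 fed and 10 starved H3K9me1 peaks (0.833), and 3 and 1 H3K9me2 peaks (0.333). Opposite directions were not seen there, but lists cut to the same length cannot show whether a whole list grew or shrank.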

How the results depend on the processing

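With 1 library per group no replicate could be left out. No paired analysis was possible because no group had more than 1 sample. At a q-value of 0.01 or less, genes with a peak numbered 6 in LSD1 fed (32.4% of all genes) and 4 in LSD1 starved (23.9%). H3K9me1 fed had 2 (18.5%) and H3K9me2 starved 0 (1.94%). At 1e-05 the genes numbered 3 in GR fed (15.2% of all genes) and 4 in GR starved (11.3%). Each of the other 6 lists had 0 (0.386% to 2.11%). At a fold of at least 5 they numbered 2 in GR fed (7.18%), 1 in LSD1 fed (5.78%) and 0 in the other 6 (0.164% to 7.27%). With equally long lists 2 genes had H3K9me2 fed (22.0% of all genes). Within 10 kb of a TSS 0 genes had H3K9me1 fed (14.3%) or H3K9me2 starved (2.71%). With peaks nearest to their own TSS 2 had H3K9me1 fed (30.4%), and with predicted transcripts 2 had H3K9me2 starved (10.3%).

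The starved to fed ratio of GR became 1.00 at q 0.01 (1.31 for the whole lists). It was 1.25 at 1e-05, from 4 fed and 5 starved peaks (0.697 for the whole lists). At a fold of 5 it turned to 0, from 2 and 0 peaks (0.437), and with equally long lists to 0.677. The LSD1 ratio turned to 0.417 at q 0.01 (0.882 for the whole lists). At a fold of 5 it turned to 0, from 1 and 0 peaks (0.275), and with equally long lists to 0.536. It became 1.78 within 30 kb and 1.62 within 10 kb of a TSS without the gene body (3.98 for the whole lists). H3K9me1 turned to 0.833 with equally long lists. H3K9me2 became 0 at q 0.01 (0.0280 for the whole lists) and within 10 kb (0.0382), and 0.333 with equally long lists. Equally long lists fix the ratio of the whole lists at 1.00. The cause of the turns was not tested.

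Promoter genes at q 0.01 numbered 3 in GR starved (13.9% of all genes), 3 in LSD1 fed (12.0%) and 1 in LSD1 starved (3.40%). At 1e-05 all 4 lists had 0 (0.0803% to 1.61%). At a fold of 5 LSD1 fed had 1 (0.880%) and the other 3 lists 0 (0.107% to 0.367%). With equally long lists GR starved had 2 (11.8%) and LSD1 starved 1 (4.91%). The share of GR peaks met by LSD1 became 29.2% in fed and 4.17% in starved muscle at q 0.01, 0 in both at 1e-05, and 0 in fed at a fold of 5. The share of fed peaks kept in starved muscle became 0 for GR at a fold of 5 (34.1% of the whole list). For LSD1 it became 0 at q 0.01 (8.29%) and at a fold of 5 (4.32%). Overlap rules moved none of these by more than the intervals. Unknown read depth limits all counts.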
